A study of Mus musculus with 2 samples.

Results

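The cells described here are natural killer (NK) cells from the spleen of wild-type mice, set apart by whether they held a transcript of Kcnj8, the gene of Kir6.1. They were chosen from 16384 barcodes of a droplet-based single-cell library. A barcode was kept with 500 to 6000 detected genes and at most 10% of its unique molecular identifiers (UMIs) from mitochondrial genes, which left 15742. Exactly 1 of 3 lipid tags had to exceed its cutoff (140, 196 and 138 counts), which left 11694. An NK cell had a UMI of at least 2 of Ncr1 (NKp46), Klrb1c (NK1.1) and Klre1 and none of Trac or Cd79a, the T and B cell receptor genes, and 8980 cells met this. The UMIs of each cell were then thinned at random to 2500, which left out 1028 shallower cells. Of the remaining 7952 cells, 877 had at least 1 Kcnj8 UMI after thinning and are called Kcnj8-positive. The other 7075 had 0 and are called Kcnj8-negative.

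KATP channels are potassium channels that close when ATP is plentiful and so tie a cell's membrane potential to its metabolism. Each is built from pore subunits of the Kir6 type, Kir6.1 (Kcnj8) or Kir6.2 (Kcnj11), and regulatory sulfonylurea receptors, SUR1 (Abcc8) or SUR2 (Abcc9). Kir6.1 is best known from vascular smooth muscle and pericytes, where it sets vessel tone. NK cells of the mouse spleen mature from cells that carry CD27 (Cd27) to cells that carry CD11b (Itgam) and, last, the inhibitory receptor KLRG1 (Klrg1). Along the way they gain cytotoxic granule proteins and the receptors CX3CR1 and S1PR5 that direct them into blood, and they divide less at rest.

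All cells came from the spleen of wild-type animals, so the classes differ in the transcript a cell was seen to hold, not in genotype or treatment. The age, sex and strain of the mice are not given in the labels. Per the labels' protocols, NK cells were obtained by negative selection, in which T cells, B cells, dendritic cells, granulocytes, macrophages and erythroid cells are held back on a column, and the library was made with 10x Genomics 3′ v3.1 chemistry. The series' title names Kir6.1 as a regulator of NK cell development. Which mice a tag stands for is not given, so the 3 tags were treated as 3 replicates of 1 library. In the cells compared below the gate genes stood, as a description, at 1041 (Ncr1), 1320.1 (Klrb1c) and 1332 (Klre1) counts in the positive and 814, 947 and 1076 in the negative class, each per 1000000 UMIs and as the mean of 3 tags. With tag as a block, p-values weigh the class difference only against how much it varied from tag to tag, partly pooled over genes. That variation may be technical. The labels list a second sample of the same kind and the same batch label, which was not analysed here.

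Kcnj8 (ENSMUSG00000030247) lies on chromosome 6 of mm10 from 142564837 to 142571614 (minus strand), with 0 overlapping genes in the annotation. The 250 bases before its start are printed because Kcnj8-positive cells were more frequent among late NK cells, whose program depends on the T-box factor T-bet. The promoters of Cx3cr1 and Ly6c2, the named genes with the highest folds in Kcnj8-positive cells, stand beside it. Capitals mark the T-box core AGGTGT, searched on both strands and here on the reverse one.
Kcnj8 (chr6:142571615-142571864, minus strand): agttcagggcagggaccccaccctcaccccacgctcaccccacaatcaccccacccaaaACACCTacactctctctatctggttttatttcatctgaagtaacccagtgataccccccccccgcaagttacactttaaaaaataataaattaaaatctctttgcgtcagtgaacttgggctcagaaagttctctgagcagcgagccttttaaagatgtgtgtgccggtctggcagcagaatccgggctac
Cx3cr1 (chr9:120068297-120068546, minus strand): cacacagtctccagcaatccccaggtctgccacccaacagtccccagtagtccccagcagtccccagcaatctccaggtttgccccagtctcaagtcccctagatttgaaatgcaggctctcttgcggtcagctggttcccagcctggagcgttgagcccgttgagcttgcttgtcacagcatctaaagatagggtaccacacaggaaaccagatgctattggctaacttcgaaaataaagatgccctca
Ly6c2 (chr15:75111972-75112221, minus strand): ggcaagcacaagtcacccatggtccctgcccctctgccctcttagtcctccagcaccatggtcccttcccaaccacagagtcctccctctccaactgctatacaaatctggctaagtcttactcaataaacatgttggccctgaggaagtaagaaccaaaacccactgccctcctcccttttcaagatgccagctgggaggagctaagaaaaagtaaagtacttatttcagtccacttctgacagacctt
The sequences are from RefSeq on GRCm38.p6 and run 5′ to 3′ along the gene. The T-box core occurred once before Kcnj8, 191 bases upstream of the start, and 0 times before Cx3cr1 and Ly6c2. It is found in 11.8% of 32851 promoters of this length. The E-box CAGGTG, bound by ZEB2-type factors, had 0 matches in these 3 windows, and 17.2% of all promoters hold it. CCACCC, the box of Krüppel-like factors, occurred 2 times before Kcnj8, once before Cx3cr1 and 0 times before Ly6c2, and 28.1% of all promoters hold it. No match overlapped another motif. A match is a description of letters and shows no binding.

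Kcnj8 was sparse in single cells. Of the 877 positive cells, 727 (82.9%) held 1 Kcnj8 UMI after thinning, 121 held 2, 25 held 3 and 4 held 4. These values set the class and are given as a description, as are all levels of Kcnj8. The neighbouring classes on either side of the threshold are therefore the 727 cells with 1 UMI and the 7075 with 0. The UMIs that were not drawn into a cell's 2500 give a level that did not set its class. In them Kcnj8 stood at 23.4, 22.2 and 19.0 CPM (UMIs of the gene per 1000000 gene UMIs of the same cells) in tags 1, 2 and 3 of the negative cells, at 107, 151 and 134 CPM in cells with 1 drawn UMI, and at 268, 260 and 253 CPM in cells with 2 or more. The 3 groups did not overlap between tags, and the undrawn level was higher in cells with more drawn UMIs. Negative thus means not seen in 2500 UMIs: 395 of the 7075 negative cells held a Kcnj8 UMI among those not drawn. Among 420 cells with Cd79a and no NK gate gene, which served as a B cell background, 0 had a Kcnj8 UMI. A count of 0 allows a share of up to 0.714% (3 of 420 cells), at a median of 3992 UMIs per cell against 4342.5 in the NK cells.

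The undrawn level also differed with Klrg1, on which no Kcnj8 class depended. Among cells with 1 drawn Kcnj8 UMI it was 94.2 ± 19.6 CPM (SD, n = 3 tags) in Klrg1-negative and 202 ± 28.0 CPM in Klrg1-positive cells. Among cells with 0 drawn it was 16.8 ± 2.42 and 57.2 ± 8.99 CPM. A Klrg1-positive cell with no drawn Kcnj8 UMI therefore stood below a Klrg1-negative cell with 1, and within either Kcnj8 group the Klrg1-positive level was above the Klrg1-negative one in 3 of 3 tags.

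**Figure D1:**
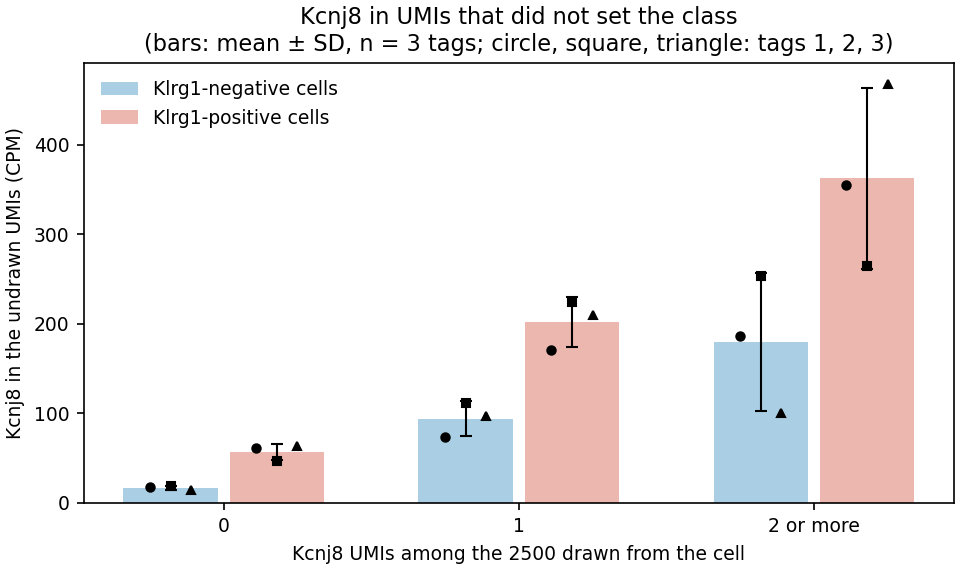
Kcnj8 level in the UMIs that were not drawn (CPM) by the number of drawn Kcnj8 UMIs, for Klrg1-negative and Klrg1-positive NK cells. Bars are the mean ± SD of 3 tags, and the level is higher with each step of drawn UMIs and higher in Klrg1-positive cells at each step, with the widest spread where 2 or more were drawn.

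Of the NK cells, 12.4% of tag 1, 9.82% of tag 2 and 11.1% of tag 3 were Kcnj8-positive, or 11.1% ± 1.29 (SD, n = 3). Pooled, 877 of 7952 cells gave 11.03% (exact binomial interval 10.3 to 11.7%, counting error only). The share was 8.62% ± 1.06 of Klrg1-negative and 22.1% ± 2.09 of Klrg1-positive cells, with every tag of the second above every tag of the first. By thinned UMIs of Cd27 and Itgam, it was 4.42% ± 1.53 of cells with Cd27 alone, 10.1% ± 1.15 of cells with neither, 10.9% ± 2.71 of cells with both and 15.95% ± 2.71 of cells with Itgam alone. The share in cells with neither and with both did not differ beyond the spread of the tags, while Cd27 alone lay below and Itgam alone above all tags of the other classes.

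A maturation score was taken per cell as the log2 ratio of thinned UMIs of 15 mature NK genes to those of 16 immature NK genes, with 1 added to each. From the lowest to the highest decile of this score the share of Kcnj8-positive cells was 1.12, 1.89, 2.79, 5.16, 7.48, 9.66, 13.1, 16.1, 24.4 and 29.5% (means of 3 tags). The mean was higher in every decile than in the one before. The genes of the score were chosen with earlier results of these cells known and include Klrg1, Itgam and Cd27. The rise is therefore not independent of the shares by those markers. Seen from the other side, 36.7% ± 3.35 of Kcnj8-positive and 16.1% ± 1.305 of Kcnj8-negative cells had a Klrg1 UMI, 49.4% ± 3.29 and 34.8% ± 1.57 had an Itgam UMI, and 11.1% ± 2.36 and 20.7% ± 0.705 had a Cd27 UMI.

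**Figure D2:**
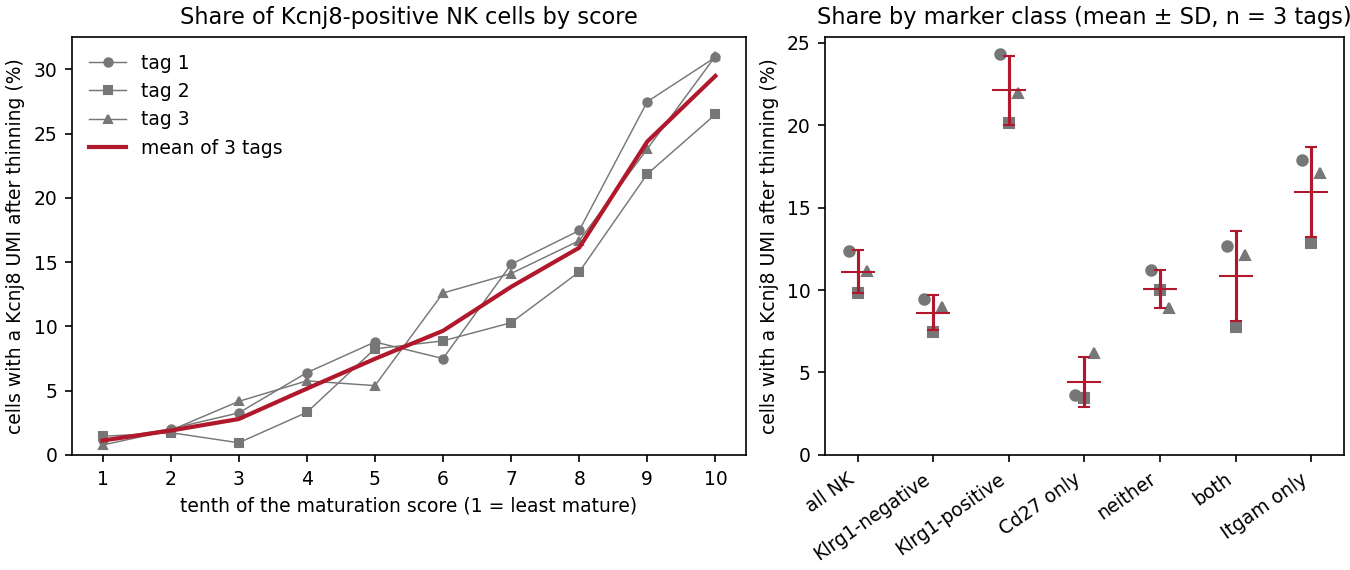
Share of NK cells with a Kcnj8 UMI after thinning (%), by decile of the maturation score with 1 line per tag and the mean (left) and by marker class with the mean ± SD of 3 tags (right). The mean share climbs from 1.12% in the lowest decile to 29.5% in the highest, and from 4.42% with Cd27 alone to 15.95% with Itgam alone.

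The positive and negative cells also differed in depth. Positive cells had a median of 3498 UMIs and 1743 genes, and negative cells 4484 UMIs and 2040 genes. Mitochondrial UMIs were 1.21% and 1.36% of the total. The comparison was therefore repeated with 2 negative cells per positive cell drawn from the same tag and the same decile of depth, a choice made after seeing the data, and those values are given below. The sums held between 1026733 and 1239852 UMIs per tag in the positive and between 11547064 and 15585217 in the negative class.

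For each tag, the full counts of the cells of a class were added up, and the classes were compared over 11927 genes (edgeR's quasi-likelihood test, tag as a block, Benjamini-Hochberg adjustment at 0.05). In Kcnj8-positive cells 664 genes were higher, which is 5.57% of those tested, and 1145 were lower, which is 9.6%. The median log2 fold over all genes tested was -0.006. Genes of late NK cells were higher and genes of early NK cells, dividing cells and ribosomal proteins were lower. DESeq2 called 276 higher and 491 lower. Without tag 3 the counts were 368 and 735. Folds below are log2, positive over negative, and the genes of the rule were not tested. The counts of each gene list below are to be read beside the shares over all genes, 5.57% higher and 9.6% lower.

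Of 15 mature NK genes tested, 14 rose and 0 fell, with a median log2 fold of 0.92. This list also holds the genes of the maturation score, and it was written with earlier results of these cells known, so its direction is not independent evidence. Cx3cr1, the fractalkine receptor of late blood-borne NK cells, stood at 93.6, 93.1 and 75.97 CPM in the positive sums of tags 1, 2 and 3, and at 27.97, 33.5 and 21.3 CPM in the negative sums. All 3 positive sums lay above all 3 negative ones, a 3.10-fold difference (log2 fold 1.63, SE 0.11, adjusted p = 3.2e-15).

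Ly6c2, a surface protein of mature NK cells and memory-type lymphocytes, stood at 970.3, 799 and 726 CPM in the positive sums of tags 1, 2 and 3, and at 321, 225 and 262 CPM in the negative sums (log2 fold 1.61, SE 0.05, adjusted p = 3.9e-27). Klrg1 itself, the receptor for cadherins on late NK cells, stood at 219, 219.7 and 189 CPM in the positive sums of tags 1, 2 and 3, and at 80.1, 78.7 and 59.3 CPM in the negative sums (log2 fold 1.49, SE 0.08, adjusted p = 8.5e-20). Neither gene's classes overlapped. Entpd1 (CD39), which breaks down extracellular ATP, stood at 136, 148 and 133 against 57.9, 59.6 and 46.2 CPM in the same order (log2 fold 1.32, SE 0.09, adjusted p = 8.8e-16). Zeb2, a repressor needed for late NK maturation, was among the higher expressed of these genes and stood at 1318, 1231 and 1211 against 727, 732 and 659.5 CPM (log2 fold 0.80, SE 0.04, adjusted p = 2.4e-21). Itgam had 304, 290.1 and 289 against 175, 184 and 164 CPM (log2 fold 0.73, SE 0.06, adjusted p = 4.5e-13). The mature gene that did not pass was S100a4, at -0.21 (adjusted p = 0.15).

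Several of the leading genes outside these lists are less familiar in NK cells. Cdc20b, a relative of the mitotic activator Cdc20, stood at 87.1, 80.5 and 92.5 CPM in the positive sums of tags 1, 2 and 3, and at 27.97, 30.9 and 29.03 CPM in the negative sums (log2 fold 1.53, SE 0.11, adjusted p = 1.6e-14). Its annotated span overlaps 6 other genes, and that of Cx3cr1 overlaps 9. Whether counting used strand is not given in the sources used here, so reads from the overlaps cannot be assigned. Smarcd3, a subunit of the SWI/SNF chromatin remodelling complex, stood at 51.6, 37.7 and 47.7 against 16.4, 13.03 and 18.01 CPM (log2 fold 1.51, SE 0.16, adjusted p = 3.5e-10). For Cdc20b and Smarcd3 all 3 positive sums lay above all 3 negative ones. Frmd5 had 28.2, 66.2 and 24.3 against 19.1, 17.5 and 12.9 CPM (log2 fold 1.24, SE 0.19, adjusted p = 3.1e-06), where tag 2 of the positive class stood apart from the other tags, and Nhsl2 had 28.2, 24.3 and 19.5 against 10.3, 11.9 and 8.92 CPM (log2 fold 1.18, SE 0.21, adjusted p = 3.6e-05).

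All 16 immature NK genes tested fell, with a median log2 fold of -1.22. This list, too, enters the score and was chosen with results known. Emb, which encodes embigin, a partner of lactate transporters, stood at 302, 152 and 138 CPM in the positive sums of tags 1, 2 and 3, and at 704, 459.8 and 407 CPM in the negative sums (log2 fold -1.44, SE 0.06, adjusted p = 2.8e-22). The class difference held within every tag, although the positive sum of tag 1 came near the negative sums of tags 2 and 3. Ltb, lymphotoxin beta, stood at 38.7, 62.9 and 75.00 against 185, 190.2 and 219.8 CPM (log2 fold -1.80, SE 0.10, adjusted p = 1e-18). Ctla2a, a cathepsin inhibitor-like protein, had 401, 376 and 318 against 699, 720.3 and 597 CPM (log2 fold -0.91, SE 0.05, adjusted p = 1.7e-19). Tcf7, the transcription factor of early and memory-type lymphocytes, had 50.01, 39.4 and 59.4 against 132, 109.6 and 127 CPM (log2 fold -1.35, SE 0.10, adjusted p = 6.9e-14), and Cd27 had 41.9, 41.1 and 61.4 against 108, 104 and 98.4 CPM (log2 fold -1.16, SE 0.12, adjusted p = 1.2e-10). For these 4 genes no positive sum reached a negative one.

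**Figure D3:**
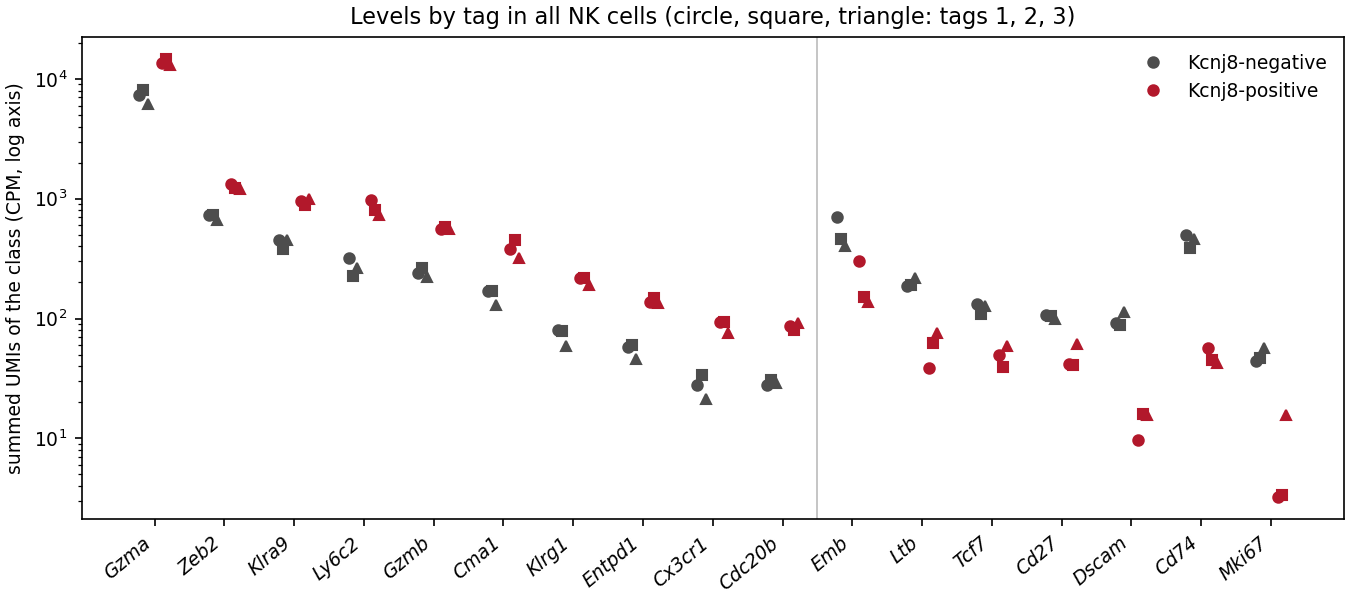
Level of 17 genes (CPM, log axis) in the sums of Kcnj8-positive and Kcnj8-negative NK cells, 1 point per tag, with higher genes left of the line and lower genes right of it. The 3 positive points lie above the 3 negative points for the 10 genes on the left and below them for the 7 genes on the right.

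Cytotoxic granule genes moved mostly upward: of 22 tested, 11 rose, 1 fell and 10 did not pass, with a median of 0.31. Gzma, the most abundant granzyme, stood at 13666, 14764 and 13126 CPM in the positive sums of tags 1, 2 and 3, and at 7403, 8023 and 6146 CPM in the negative sums (log2 fold 0.92, SE 0.03, adjusted p = 3.4e-27). Gzmb, the granzyme that cleaves caspases, had 562, 581 and 562 against 242, 262 and 223 CPM (log2 fold 1.20, SE 0.05, adjusted p = 8.7e-23), and Cma1, a chymase, had 382, 453 and 320.4 against 171, 169.8 and 131 CPM (log2 fold 1.26, SE 0.06, adjusted p = 6e-21). The pore former Prf1 had 1198, 1161 and 1035 against 730.1, 699 and 585 CPM (log2 fold 0.72, SE 0.04, adjusted p = 1.1e-19). Every positive sum of these 4 genes exceeded every negative one. Among the smaller changes, Nkg7, needed for granule release, had 0.49 (adjusted p = 3.4e-17) and the protease inhibitor gene Serpinb9b had 1.00. Release genes such as Unc13d (0.27), Rab27a (0.06) and Stxbp2 (0.09) did not pass. Gzmc was the member that fell, on 2 UMIs in the positive cells against 137, a ratio of 6.07 (exact interval 1.65 to 50.7, counting error only). Its call was lost without tag 1 and without tag 2.

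Of 9 Ly49 receptor genes tested, 4 rose and 0 fell. Klra9, which encodes an inhibitory Ly49 receptor, led with 961, 879 and 992 CPM in the positive sums of tags 1, 2 and 3, and at 449, 379.6 and 452 CPM in the negative sums (log2 fold 1.12, SE 0.04, adjusted p = 1.2e-24). The activating receptor gene Klra8 (Ly49H) had a log2 fold of 0.18 (adjusted p = 6.1e-05), but -0.17 (adjusted p = 0.0062) against negatives matched by score and -0.09 against negatives matched by depth, so its direction depends on the negatives used. Klra3 had 0.52 and Klra5 0.67, while Klra1, Klra4, Klra6, Klra7 and Klra10 did not pass. Klra5 was carried by tag 3, without which it had 0.16 (adjusted p = 0.81). Ly49 genes are near copies of each other, and the counting could split their reads.

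Of 33 other NK receptor and adaptor genes, 13 rose and 8 fell. Besides Klrg1, those that rose did so by smaller amounts. The signaling adaptor Fcer1g stood at 2912, 2842 and 2696 against 2142, 2133 and 1916 CPM (log2 fold 0.42, SE 0.03, adjusted p = 1.9e-15), Klrb1b at a log2 fold of 0.55, Cd48 at 0.40 and Klrd1 (CD94) at 0.30. The adaptor Tyrobp had 0.16 (adjusted p = 8.8e-05), which became 0.07 (adjusted p = 0.14) without cells that held markers of other cell types. Those that fell included the co-receptors Cd160 (-1.29), Crtam (-1.55), Tigit (-1.04) and Slamf6, which had 8.87, 8.38 and 6.82 against 24.1, 29.96 and 27.4 CPM (log2 fold -1.77, SE 0.23, adjusted p = 1.2e-07). Havcr2 (TIM-3) had 3 UMIs in the positive cells against 218, a ratio of 6.44 (exact interval 2.18 to 31.5, counting error only). Markers of dendritic cells and monocytes were lower in the positive cells too, as given below.

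Trafficking genes split, with 10 of 24 higher and 7 lower. Beside Cx3cr1, the sphingosine-1-phosphate receptor genes S1pr5 (1.04) and S1pr4 (0.60) rose, as did Klf2, which drives expression of such receptors, at 1926, 1592 and 1299 against 1293, 1089 and 862 CPM (log2 fold 0.54, SE 0.03, adjusted p = 2.8e-17). The integrin genes Itgb2 (0.50) and Itgb7 (0.40) were higher, and Itga4 had 0.30 (adjusted p = 2.7e-09). The integrin gene Itgax went the other way, at -0.69 (adjusted p = 2.6e-07). Chemokine receptor genes of early NK or tissue-resident cells were lower: Cxcr3 (-1.06), Cxcr6 (-1.37) and Ccr2 (-0.79). Gpr183, a receptor for oxysterols, fell as well (-1.40). S1pr1, the exit receptor of most lymphocytes, had -0.13 (adjusted p = 0.56).

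Among cytokine and chemokine genes 2 of 12 rose and 5 fell. Ccl5, the most abundant chemokine transcript, stood at 15764, 15931 and 15584 CPM in the positive sums of tags 1, 2 and 3, and at 11159, 11197 and 10464 CPM in the negative sums (log2 fold 0.50, SE 0.02, adjusted p = 1e-20), and the death ligand Fasl had 0.46. Xcl1 fell (-1.42), as did Tnfsf10, which encodes TRAIL (-1.03), and Tnf, at 4.84, 3.35 and 3.90 against 12.6, 13.1 and 17.00 CPM (log2 fold -1.83, SE 0.33, adjusted p = 4.9e-05). Ifng had -0.09 (adjusted p = 0.55) and Ccl3 -0.05 (adjusted p = 0.67). Of 23 cytokine receptor and signaling genes 6 rose and 4 fell. Il12rb2 (0.55) and Il18rap (0.46), parts of the IL-12 and IL-18 receptors, were higher, and Il7r had 44.4, 51.98 and 68.2 against 87.9, 78.4 and 132 CPM (log2 fold -0.88, SE 0.11, adjusted p = 2e-08). Stat4 fell by a small amount (-0.20), while Il2rb, the receptor chain shared by IL-2 and IL-15, had -0.09 (adjusted p = 0.12).

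Of 28 transcription factor genes 11 rose and 7 fell. Next to Zeb2 and Klf2, the factors of terminal maturation Prdm1 (0.55) and Tbx21, which encodes T-bet (0.30), were higher, as were Irf8 (0.55) and Id2 (0.41). Tox (-1.08), Myb (-1.21) and Ikzf2 (-1.13), factors of early NK cells, were lower, as was Eomes (-0.21). Id3 had 2 UMIs in the positive cells against 314, a ratio of 13.9 (exact interval 3.82 to 115, counting error only). Immediate early genes, which switch on within minutes of stimulation or tissue dissociation, had 3 of 18 higher and 10 lower. Egr1 had 13.7, 8.38 and 18.5 against 36.1, 29.6 and 23.5 CPM (log2 fold -1.20, SE 0.21, adjusted p = 3.8e-05) and Nr4a1, a reporter of receptor signaling, -0.99. Dusp2 went the other way (0.57), and the abundant Junb had -0.10 (adjusted p = 0.046, lost without tag 2 or tag 3) and Jund 0.03 (adjusted p = 0.64).

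The other KATP subunits were near the limit of counting. In the 7952 cells Kcnj11 had 8 UMIs, Abcc9 had 2 and Abcc8 had 1, against 1707 of Kcnj8. Of these, the 877 positive cells held 1 Kcnj11 UMI, 1 Abcc9 UMI and 0 Abcc8 UMIs. None could be tested. Among 11 other genes tested that encode potassium channels, their partners or proteins named after them, 0 rose and 3 fell. Kcnq5, a voltage-gated channel and the most abundant of the list, stood at 673, 686 and 592 CPM in the positive sums of tags 1, 2 and 3, and at 762, 695 and 674 CPM in the negative sums (log2 fold -0.16, SE 0.04, adjusted p = 0.0074). The classes overlapped, and the call was lost without tag 1 (-0.12) or tag 3 (-0.13). Kcnn4, the calcium-activated channel of activated lymphocytes, had 8.07, 2.52 and 5.84 against 13.1, 11.9 and 16.7 CPM (log2 fold -1.36, SE 0.31, adjusted p = 0.0013), with -1.26 (adjusted p = 0.055) without tag 3. Kcnc1, a fast voltage-gated channel, had 2 UMIs in the positive cells against 236, a ratio of 10.5 (exact interval 2.86 to 86.9, counting error only). Kcna3, the Kv1.3 channel, had 0.51 (adjusted p = 0.7).

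Of 6 tested genes that lie beside Kcnj8 on chromosome 6, Cmas, which activates sialic acid, rose and Etnk1, an ethanolamine kinase, fell. Cmas had 105, 91.4 and 73.05 against 68.2, 62.2 and 61.9 CPM (log2 fold 0.46, SE 0.10, adjusted p = 0.00052) and Etnk1 70.98, 61.2 and 82.8 against 84.8, 93.9 and 89.8 CPM (log2 fold -0.36, SE 0.10, adjusted p = 0.011). Golt1b, Recql, Pyroxd1 and C2cd5 did not pass. The call of Etnk1 was lost without tag 2 (-0.22). Of 10 purinergic genes Entpd1 rose and P2rx7 and P2ry14 (-0.76) fell, P2rx7 with 3 UMIs in the positive cells against 236, a ratio of 6.97 (exact interval 2.36 to 34.1, counting error only). Of 20 calcium entry and pump genes 4 rose and 1 fell. Atp2a3, the endoplasmic reticulum calcium pump of blood cells, had 124, 134 and 129 against 90.7, 94.00 and 89.5 CPM (log2 fold 0.47, SE 0.08, adjusted p = 3.1e-05). Itpr1, a calcium release channel, fell (-0.30, adjusted p = 0.044), and its call was lost without tag 1 or without tag 2.

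No gene of the 3 metabolic lists rose. Of 17 glycolysis genes 0 rose and 5 fell, among them Gpi1 at 60.5, 83.8 and 62.3 against 98.2, 109.7 and 112 CPM (log2 fold -0.65, SE 0.10, adjusted p = 2.8e-06) and Gapdh at 306, 283 and 287 against 354, 371 and 390.1 CPM (log2 fold -0.37, SE 0.06, adjusted p = 1.7e-06). Of 87 nuclear genes of oxidative phosphorylation 0 rose and 10 fell, with a median of -0.05. Over all genes tested 9.6% were lower, so the number that fell does not set this list apart. Cox8a, the highest expressed of them, had 943, 952 and 972 against 917, 931 and 926 CPM (adjusted p = 0.82). Of 13 mitochondrially encoded genes 0 rose and 9 fell, led in level by mt-Co3 at 2075, 2072 and 2106 against 2471, 2578 and 2462 CPM (log2 fold -0.29, SE 0.03, adjusted p = 1.9e-10) and in fold by mt-Co1 (log2 fold -0.35, SE 0.03, adjusted p = 1.5e-12).

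Cytoplasmic ribosomal protein genes fell almost throughout: 80 of 82 tested were lower and 0 higher, with a median of -0.39. Rps20 stood at 1662, 1675 and 1797 CPM in the positive sums of tags 1, 2 and 3, and at 2835, 2845 and 3186 CPM in the negative sums (log2 fold -0.82, SE 0.03, adjusted p = 3.3e-24), and Rps19 at 812, 855 and 917 against 1419, 1427 and 1672 CPM (log2 fold -0.83, SE 0.04, adjusted p = 8.8e-22). The most abundant, Rps24, had -0.40 (adjusted p = 2.3e-16). All 3 positive sums lay below all 3 negative sums for these genes. Many of them have processed pseudogenes, and how their reads were assigned is not given in the sources used here. With negatives matched by depth, 69 of 81 were lower (median -0.18), and with negatives matched by maturation score 68 of 81 (median -0.19).

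Cell cycle genes were lower too, with 15 of 18 tested falling and 0 rising (median -1.69). Mki67, the proliferation marker, stood at 3.23, 3.35 and 15.6 CPM in the positive sums of tags 1, 2 and 3, and at 43.9, 46.5 and 56.4 CPM in the negative sums (log2 fold -2.83, SE 0.23, adjusted p = 4.9e-13), with tag 3 of the positive class above the other positive sums. Birc5 (survivin) had 2.42, 1.68 and 6.82 against 23.7, 23.4 and 33.7 CPM (log2 fold -2.96, SE 0.30, adjusted p = 1.8e-10), and Pclaf, a partner of the replication clamp, had 0, 1.68 and 4.87 against 36.6, 42.03 and 40.7 CPM (log2 fold -4.31, SE 0.33, adjusted p = 3.6e-14). After thinning to equal depth, an Mki67 or Top2a UMI was held by 28 of 877 positive cells (3.21% ± 0.542) and 429 of 7075 negative cells (6.07% ± 0.339). In the full counts, at unequal depth, it was held by 41 and 749 cells. Without the cells that held one in the full counts, 0 of 13 cell cycle genes still tested fell by edgeR and 2 rose (2 had an unadjusted p under 0.05), and Hmgb2 had 0.08 in place of -0.44. Mki67 and Top2a belong to this list, and deeper cells hold them more readily, so this loss is not independent of the choice of cells. With negatives matched by depth, 2 of 15 were lower (median -0.32), and without the deepest decile of cells 1 of 16 was lower and 1 higher. Over all genes, 545 were higher and 903 lower without the cycling cells.

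Genes of antigen-presenting cells were among the 12 named genes with the largest falls. Cd74, the invariant chain of MHC class II, stood at 56.5, 45.3 and 42.9 CPM in the positive sums of tags 1, 2 and 3, and at 493, 391 and 463 CPM in the negative sums (log2 fold -3.24, SE 0.08, adjusted p = 4.5e-30). H2-Aa had 17.7, 16.8 and 25.3 against 211, 161 and 190.3 CPM (log2 fold -3.28, SE 0.12, adjusted p = 3.5e-24) and H2-Eb1 16.1, 11.7 and 11.7 against 168, 138 and 160.3 CPM (log2 fold -3.58, SE 0.14, adjusted p = 7.8e-24). Lyz2, the lysozyme of myeloid cells, had 6.45, 10.1 and 1.95 against 57.2, 86.7 and 65.5 CPM (log2 fold -3.48, SE 0.21, adjusted p = 2.1e-17), and Wdfy4, Tbc1d4, Cd83 and Marcks had log2 folds of -3.76, -3.68, -3.61 and -2.97. Batf3, the factor of cross-presenting dendritic cells, had 3 UMIs in the positive cells against 1145, a ratio of 33.8 (exact interval 11.6 to 164, counting error only). Dscam, an adhesion molecule best known from neurons, stood at 9.68, 15.9 and 15.6 against 91.4, 88.4 and 114 CPM (log2 fold -2.86, SE 0.16, adjusted p = 7.5e-19).

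Some markers of other cell types were lower in the positive cells too. After thinning, at least 5 UMIs of 4 MHC class II genes were held by 0 of 877 positive cells, which allows up to 0.342%, and by 161 of 7075 negative cells (2.29% ± 0.188). The summed level of 8 conventional dendritic cell markers ranged from 96.4 to 115 CPM over the positive and from 719 to 923 CPM over the negative sums, and 6 of 7 tested fell. In the full counts of the positive cells 2 of these 8 markers were at 0, as were 2 of 6 monocyte, 3 of 9 T cell, 0 of 8 B cell and 4 of 8 mural or fibroblast markers. Summed monocyte markers ranged from 52.8 to 57.5 against 111 to 141 CPM (2 of 4 tested fell), B cell markers from 57.3 to 84.7 against 115 to 120.5 CPM (1 of 6), T cell markers from 318 to 338 against 395 to 436 CPM (4 of 4) and ILC1 markers from 169 to 185 against 249 to 328 CPM (5 of 7). No marker of any of the 13 types considered rose. Plasmacytoid dendritic cell markers ranged from 147 to 159.7 against 164 to 180.1 CPM (2 of 4 fell), erythroid markers from 194 to 220.5 against 291 to 564 CPM (2 of 5), endothelial markers from 32.1 to 41.9 against 58.3 to 69.4 CPM (1 of 2) and progenitor markers from 21.8 to 63.3 against 71.9 to 98.8 CPM (1 of 2). Mural or fibroblast markers, cells in which Kcnj8 is high elsewhere, ranged from 0.974 to 10.1 against 3.55 to 139 CPM (2 of 2 fell), ranges that overlap. The ranges also overlapped for platelet markers, at 4.87 to 98.9 against 21.2 to 58.6 CPM, and for plasma cell markers, at 50.8 to 55.5 against 45.2 to 53.8 CPM. Most of the T cell sum was Trbc1 (311 against 351 CPM), with a thinned UMI in 46.0% of positive and 53.8% of negative cells. Likewise Ighm (55.7 against 102 CPM) made up most of the B cell sum and Car2 (166 against 250 CPM) most of the erythroid sum. These sums therefore rest largely on a single gene each and do not stand for whole cell types. The part of these markers in the results was not tested beyond the repeat that follows. This holds as well for genes above with few UMIs in the positive cells, such as Havcr2, Id3, Kcnc1 and P2rx7.

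Cells with at least 2 UMIs of another type's markers were therefore left out in a repeat that was chosen after seeing the data (1449 cells, 99 of them positive). There 397 genes were higher and 627 lower. Of the 1145 genes lower in all cells 959 were tested there, 938 kept their direction and 580 their call. Of the 664 higher 660 were tested, 660 kept their direction and 379 their call. Cd74 then had -0.20 (adjusted p = 0.4), H2-Eb1 -0.31, H2-Aa 0.18, Lyz2 0.04 and Marcks 0.27, and none of them passed. H2-Aa and Lyz2 were among the 71 markers by which cells were left out, so their loss is not independent of that choice. Cd74 and H2-Eb1 belong to MHC class II, as the markers H2-Aa and H2-Ab1 do, so their loss is not independent of it either. Dscam still fell (-3.29), and Wdfy4 was not tested. In this repeat 15 of 15 mature genes rose, 15 of 16 immature genes fell and 79 of 81 ribosomal genes fell. Il7r and Kit, members of the immature list, were also markers used to leave out cells, so early NK cells could be left out too. Interferon-stimulated genes, of which 5 of 16 were lower in all cells, had 0 of 12 called by edgeR in this repeat, and 1 at an unadjusted p under 0.05. Bst2, among those lower in all cells, was also a marker used to leave out cells, so its part of this loss is not independent. Of the S100, annexin and galectin genes 5 of 16 rose in all cells, among them Lgals1 (log2 fold 0.53, SE 0.03, adjusted p = 3.3e-17) and S100a6 (0.63), and 3 fell. Those 3 were the neutrophil genes S100a8 and S100a9 and the macrophage-type gene Lgals3, and in the repeat 6 of 14 rose and 0 fell. S100a8 and S100a9 were themselves used to leave out cells, so for them the repeat is no independent result. Neutrophil markers ranged from 2.92 to 4.84 CPM over the positive and from 3.20 to 113 CPM over the negative sums, and these ranges overlap. S100a9 was highest in the negative sum of tag 3 (59.5 CPM, against 1.47 and 18.03 CPM in tags 1 and 2), and without that tag S100a8 (-2.38) and S100a9 (-1.73) did not pass.

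When negative cells were drawn from the same tag and the same decile of the maturation score, 2 for each positive cell, 62 genes were higher and 213 lower of 9399 tested. The genes of the score were not tested there. Of the 664 genes higher in all cells 638 were tested, 618 kept their direction and 52 their call, with a median log2 fold of 0.16, against 0.36 for the 664 in all cells. Smarcd3 (0.59), Arhgap31 (0.46), a GTPase-activating protein, Klra9 (0.37), Gzma (0.24), Klf2 (0.20), Nkg7 (0.19) and Ccl5 (0.13) remained higher. Cdc20b (0.36), Frmd5 (0.44), Nhsl2 (0.33) and Lgals1 (0.07) no longer passed. Rps19 (-0.48), Rps20 (-0.41), Kcnq5 (-0.22), Gpi1 (-0.40) and Mki67 (-2.22) remained lower. With negatives matched by depth instead, 167 genes were higher and 289 lower, and 12 of 15 mature and 15 of 16 immature genes passed in the same directions.

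Within the 1467 Klrg1-positive cells, 323 were Kcnj8-positive and 1144 Kcnj8-negative. These cells share the last marker of maturation, but their scores still differed, with medians of 3.17 and 2.32, and their depths were 3463 and 3920 UMIs. Over 8046 genes tested, 26 were higher in the Kcnj8-positive cells, which is 0.323%, and 104 lower, which is 1.29%. The cells are a subset of those compared above, so the 2 sets of values are given side by side only. The calls leaned on the tags: 3 genes were higher and 9 lower without tag 2, 7 and 22 without tag 1, and 31 and 119 without tag 3.

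Late genes still differed inside the Klrg1-positive cells. Ly6c2 stood at 1201, 1041 and 927 CPM in the positive sums of tags 1, 2 and 3, and at 659, 461 and 572 CPM in the negative sums, without overlap (log2 fold 0.90, SE 0.07, adjusted p = 2.1e-22). Klra9 had 1219, 1085 and 1483 against 917, 712 and 970.4 CPM (log2 fold 0.52, SE 0.07, adjusted p = 1.6e-09), Zeb2 1457, 1416 and 1574 against 1068, 1145 and 1036 CPM (log2 fold 0.43, SE 0.07, adjusted p = 5.3e-07) and Gzmb 656, 816 and 682 against 492, 492 and 498 CPM (log2 fold 0.52, SE 0.08, adjusted p = 1.4e-07). The first 3 of these passed without any 1 of the tags, while Gzmb did not without tag 2 (0.41, adjusted p = 0.081). Of 14 mature NK genes tested 8 rose and 0 fell, with a median of 0.36. Cx3cr1 had 143, 138 and 135 against 89.5, 110.1 and 71.2 CPM (log2 fold 0.58, SE 0.15, adjusted p = 0.012), Entpd1 0.46, Cma1 0.36, S1pr5 0.50 and Spn (CD43) 0.32, and the calls of Cx3cr1 and Entpd1 were lost when any 1 tag was left out.

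Other late genes had values near 0 there. Itgam stood at 356, 316 and 278 CPM in the positive sums of tags 1, 2 and 3, and at 298, 299.7 and 326 CPM in the negative sums, and its classes overlapped (log2 fold 0.03, SE 0.10, adjusted p = 0.98). Prf1 had 1339.9, 1234 and 1085 against 1184, 1063 and 972 CPM (log2 fold 0.16, SE 0.07, adjusted p = 0.32), Tbx21 0.02 and Prdm1 -0.14, none of which passed. Of 20 granule genes, Gzma (log2 fold 0.27, SE 0.06, adjusted p = 0.00062), Gzmb and Cma1 were those that rose, and 0 fell. The calls of Gzma and Cma1 were lost without tag 1 and without tag 2. Of 9 Ly49 genes Klra9 rose and Klra7 fell (-0.32).

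Among the genes with the highest folds in Klrg1-positive cells, Cdc20b had 115, 114 and 126 against 60.8, 72.1 and 74.6 CPM (log2 fold 0.75, SE 0.16, adjusted p = 0.001), Arhgap31 129.9, 107 and 78.98 against 63.2, 54.8 and 76.03 CPM (log2 fold 0.73, SE 0.17, adjusted p = 0.0034) and Stk32c, a kinase, 57.5, 46.04 and 70.2 against 29.8, 27.4 and 35.9 CPM (log2 fold 0.86, SE 0.23, adjusted p = 0.022). Their calls were lost without tag 1 and without tag 2, and that of Stk32c also without tag 3. Gng11, a G protein subunit abundant in platelets, had the highest fold of the named genes at 31.95, 72.3 and 26.3 CPM in the positive sums of tags 1, 2 and 3, and at 17.6, 19.5 and 22.8 CPM in the negative sums (log2 fold 1.15, SE 0.28, adjusted p = 0.0063). Its value rested on tag 2 and on the draw of UMIs: it was 0.55 without that tag, 1.28 without tag 1 (adjusted p = 0.096) and -0.05 with a second draw. The summed level of 4 platelet markers ranged from 2.93 to 199 CPM over the positive and from 26.9 to 48.2 CPM over the negative sums.

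Immature NK genes were lower inside the Klrg1-positive cells as well, with 9 of 15 falling, 0 rising and a median of -0.86. Emb stood at 115, 87.7 and 55.6 CPM in the positive sums of tags 1, 2 and 3, and at 235, 160.0 and 198 CPM in the negative sums, without overlap (log2 fold -1.18, SE 0.14, adjusted p = 9.5e-11). Ctla2a had 256, 278 and 219 against 466, 477 and 403 CPM (log2 fold -0.86, SE 0.10, adjusted p = 1.2e-12), and both passed without any 1 of the tags. Cd27 had 19.2, 15.3 and 43.9 against 54.4, 60.6 and 71.2 CPM (log2 fold -1.34, SE 0.25, adjusted p = 8.5e-05) and Tcf7 31.95, 37.3 and 20.5 against 60.8, 55.7 and 68.4 CPM (log2 fold -1.01, SE 0.24, adjusted p = 0.0039). Their calls were lost without tag 2, and that of Tcf7 without any 1 tag. Tox (-0.61), Eomes (-0.41), Cd28 (-0.88), Xcl1 (-0.99) and Cd160 (-0.76) fell too, and Kit, Il7r, Ltb, Cxcr3, Crtam and Myb did not pass.

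Of 81 ribosomal genes 39 fell and 0 rose (median -0.22), among them Rps20 at 1502, 1559 and 1828 against 2077, 2219 and 2178 CPM (log2 fold -0.44, SE 0.06, adjusted p = 7.9e-08). With negatives matched by depth 1 of 81 was lower. Cell cycle genes had 8 of 15 lower (median -0.91), with Mki67 at 2.13, 2.19 and 38.03 against 32.2, 70.7 and 43.5 CPM (log2 fold -2.05, SE 0.34, adjusted p = 4.8e-06), where tag 3 of the positive class overlapped the negative sums. Without tag 2 the calls of Rps20 (-0.38, adjusted p = 0.081) and Mki67 (-1.12, adjusted p = 0.6) were lost. Without cells holding Mki67 or Top2a 0 of 9 were called by edgeR, and 1 had an unadjusted p under 0.05. Those cells were chosen by genes of the same list, so this loss, too, is not independent of the choice. DESeq2 called 0 of the 15 in all Klrg1-positive cells, with 4 at an unadjusted p under 0.05. By edgeR 0 of 14 glycolysis genes, 0 of 84 nuclear oxidative phosphorylation genes, 0 of 19 calcium genes and 0 of 8 interferon-stimulated genes passed. At an unadjusted p under 0.05 these counts were 1, 2, 0 and 0, and DESeq2 called 0 in each. Over all genes tested there 0.323% were higher and 1.29% lower, so counts of 0 say little about lists of this size. Kcnq5, by contrast, had 509, 686 and 550.0 against 719, 709 and 822 CPM (log2 fold -0.38, SE 0.08, adjusted p = 0.00066), a call that was lost without tag 1 (-0.30) or tag 3 (-0.28).

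Matching on the score within the Klrg1-positive cells left 1 gene higher and 1 lower, Pf4, a platelet chemokine, and Pclaf, which were named after their values were seen. Ly6c2, Zeb2, Emb and the other score genes were not tested there, and 0 of 81 ribosomal genes were called by edgeR, with 15 at an unadjusted p under 0.05. Arhgap31 had 0.66 (adjusted p = 0.52), Klra9 0.27 (adjusted p = 0.37), Kcnq5 -0.30 (adjusted p = 0.6) and Rps20 -0.26 (adjusted p = 0.32). These values kept their sign and did not pass.

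Within the 6485 Klrg1-negative cells, 554 were Kcnj8-positive and 5931 Kcnj8-negative, with median scores of 2.09 and 0.152. Over 11521 genes, 522 were higher (4.53%) and 933 lower (8.1%), and 328 and 320 were higher without tag 1 and without tag 2. None of these cells enters the Klrg1-positive comparison. All 26 genes called higher there were tested here, of which 22 were higher and 21 were called so. Of the 104 called lower, 102 were lower and 93 were called. Cx3cr1 stood at 63.6, 65.2 and 46.7 CPM in the positive sums of tags 1, 2 and 3, and at 17.3, 20.5 and 14.4 CPM in the negative sums (log2 fold 1.72, SE 0.18, adjusted p = 1.9e-18), and Itgam at 273, 274 and 295 against 153, 164 and 141 CPM (log2 fold 0.84, SE 0.08, adjusted p = 2.5e-22). Neither gene's classes overlapped in the Klrg1-negative cells.

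The contrast was tested for a difference between the 2 sides of Klrg1 over 8882 genes. In 49 genes, 0.552%, the log2 fold was higher in Klrg1-positive cells, and in 35, 0.394%, it was lower. The late NK genes given next had the smaller fold in Klrg1-positive cells. The difference was -1.13 (SE 0.20, adjusted p = 0.00078) for Cx3cr1, -1.04 (SE 0.11, adjusted p = 3e-08) for Cma1, -0.79 (SE 0.12, adjusted p = 6.3e-05) for Itgam and -0.72 (SE 0.06, adjusted p = 1.5e-10) for Gzma. It was -0.62 (SE 0.07, adjusted p = 7.6e-07) for Prf1, -0.72 (SE 0.10, adjusted p = 6.8e-06) for Ly6c2 and -0.33 (SE 0.08, adjusted p = 0.03) for Zeb2. The ribosomal gene Rps20 fell less in the Klrg1-positive cells, with a difference of 0.42 (SE 0.07, adjusted p = 0.00078). The call of Cx3cr1 was lost without tag 2, and that of Zeb2 without tag 1 and without tag 2. Without tag 1 the counts were 26 and 16, without tag 2 40 and 15, and without tag 3 14 and 23. For Emb the difference was -0.02 (SE 0.20, adjusted p = 0.99), for Ctla2a -0.10 (SE 0.11, adjusted p = 0.85) and for Arhgap31 0.12 (SE 0.22, adjusted p = 0.92), so no difference was shown for these.

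**Figure D4:**
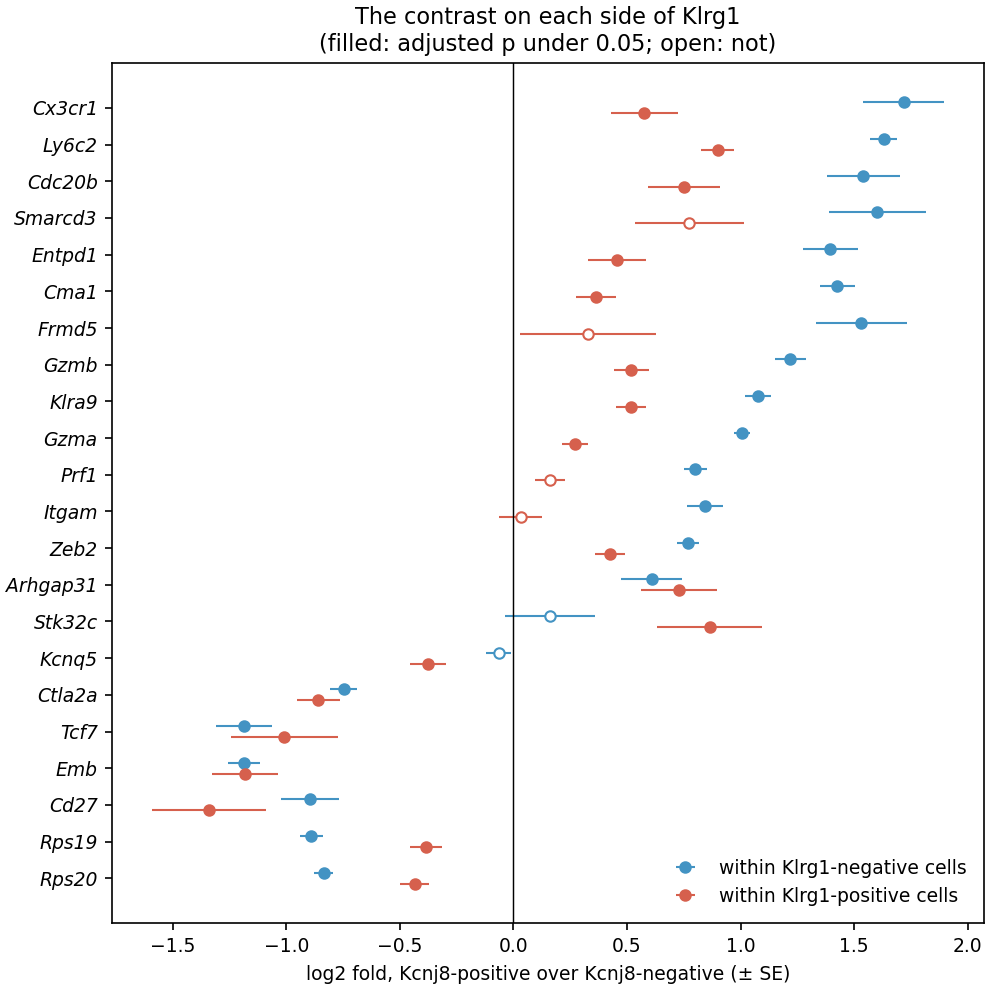
Log2 fold of named genes (Kcnj8-positive over Kcnj8-negative, ± SE) within Klrg1-negative and within Klrg1-positive NK cells, filled where the adjusted p passes 0.05. The late genes Cx3cr1, Ly6c2, Entpd1, Cma1, Gzmb, Klra9, Gzma, Prf1 and Itgam lie nearer to 0 in Klrg1-positive cells, Itgam at 0.03 against 0.84. For Arhgap31, Ctla2a and Emb the 2 values lie close together.

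**Figure D5:**
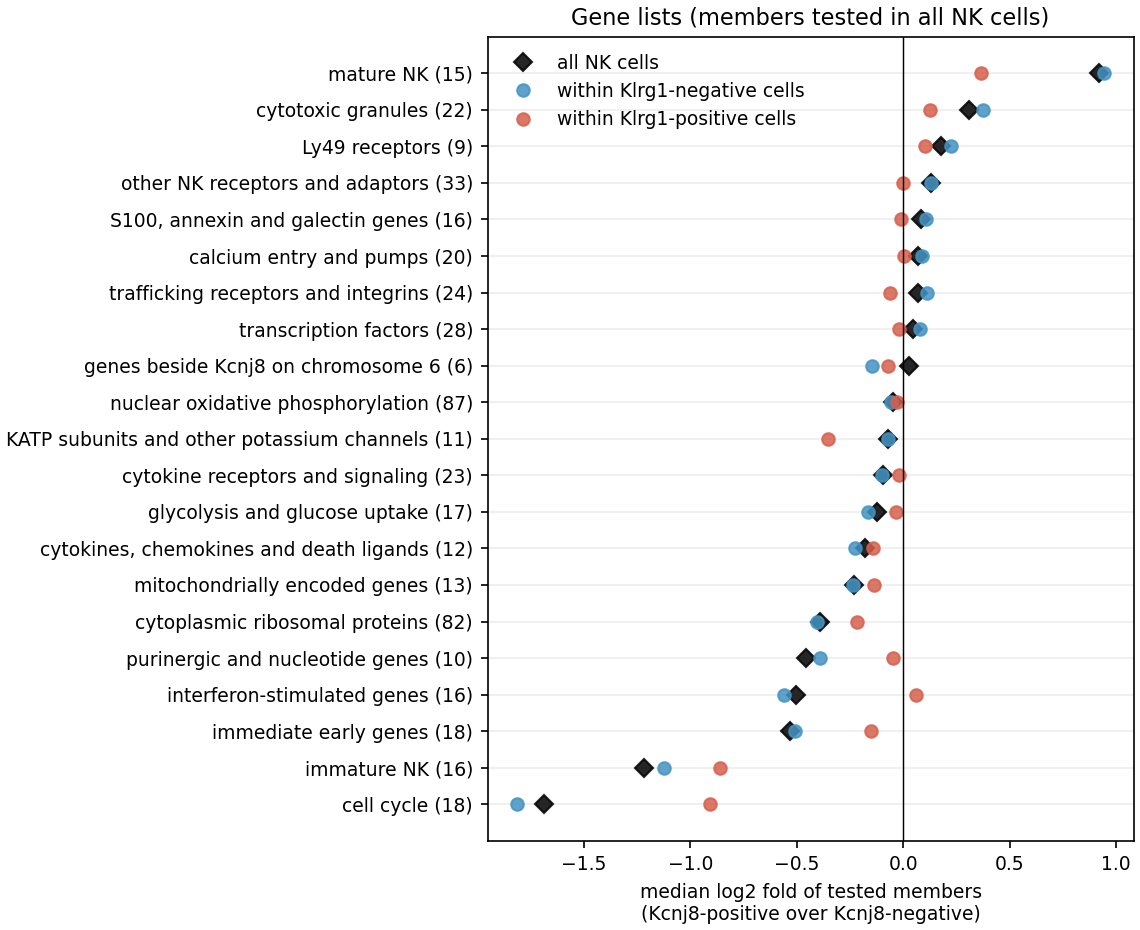
Median log2 fold of the tested members of each gene list in all NK cells, within Klrg1-negative and within Klrg1-positive cells, with the number tested in all NK cells in brackets. Cell cycle and immature NK genes lie lowest and mature NK genes highest in all NK cells, and the medians of the mature list shrink from 0.92 to 0.36 within Klrg1-positive cells.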

How the data were processed

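Gene and tag UMI counts were used as the authors deposited them. Per the file headers they were made with Cell Ranger 7.0.0, and per the submitters' processing notes with Cell Ranger and Seurat on mm10. How introns, strand and overlapping genes were counted, and with which annotation, is not given in the sources used here. Of 32285 gene IDs, 32158 matched GENCODE M21, from which gene positions were taken. Tag cutoffs were recomputed with Otsu's method. No doublet caller was run. By the tag frequencies 66.5% of doublets carry different tags and were left out, and 1781 doublets of 1 tag are expected among single-tag cells (15.2%).

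Each NK cell was thinned to 2500 UMIs without replacement (seed 1) to set its class. For each tag, the full counts of the cells of a class were added up, with between 1026733 and 15585217 UMIs per sum over all NK cells. They were tested with edgeR 4.0.16 (R 4.3.3, TMM scaling, filterByExpr, quasi-likelihood test, tag as a block, since both classes of a tag come from the same labelled cells). The script was tested on simulated data. DESeq2 1.42.0, Python 3.11.15 with pandas 2.3.3, numpy 2.4.6 and scipy 1.17.1 were also used. Standard errors are the log2 fold over the root of F. Intervals are exact binomial at 95%, floors are 3 counts, and both cover counting error only.

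Kcnj8, Ncr1, Klrb1c, Klre1, Trac, Cd79a and, within Klrg1 strata, Klrg1 were not tested. Named genes were called, went the same way in 3 of 3 tags and had at least 20 CPM in the higher class. Taken were the 12 highest and 12 lowest by fold in all NK cells, 6 each way in Klrg1-positive cells, the 2 largest called folds and 2 highest CPM of each list, and Klrg1, Itgam and Cd27. Other list members are given to show each list's make-up and were chosen after their values were seen. Some genes are not reported here. The cells, lists and tests were chosen with earlier results of these data known. Alternatives were the tool, block, filter, draw, gate, class, tags left out, cycling or deep cells left out and negatives matched by score. Negatives matched by depth and the removal of cells with markers of other types were added after seeing the data.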

Additional observations from a re-analysis of the deposited data

Results flagged for a closer look

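The contrast between Kcnj8-positive and Kcnj8-negative cells differed between Klrg1-positive and Klrg1-negative cells for 23 of the genes named in the report, by edgeR's test of the difference with Benjamini-Hochberg adjustment over 8882 genes. Each value is the log2 fold within Klrg1-positive cells minus that within Klrg1-negative cells. Among receptor, surface and adhesion genes it was -1.13 (SE 0.20, adjusted p = 0.00078) for Cx3cr1, -0.72 (SE 0.10, adjusted p = 6.8e-06) for Ly6c2, -0.93 (SE 0.16, adjusted p = 0.00063) for Entpd1 and -0.79 (SE 0.12, adjusted p = 6.3e-05) for Itgam. For the Ly49 gene Klra9 it was -0.54 (SE 0.09, adjusted p = 0.00042), and for the adaptor genes Tyrobp and Fcer1g -0.30 (SE 0.06, adjusted p = 0.0076) and -0.26 (SE 0.06, adjusted p = 0.029). Among granule genes it was -1.04 (SE 0.11, adjusted p = 3e-08) for Cma1, -0.72 (SE 0.06, adjusted p = 1.5e-10) for Gzma, -0.69 (SE 0.10, adjusted p = 6.3e-05) for Gzmb, -0.62 (SE 0.07, adjusted p = 7.6e-07) for Prf1 and -0.35 (SE 0.06, adjusted p = 0.00078) for Nkg7.

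The same sign was seen in Cdc20b at -0.78 (SE 0.20, adjusted p = 0.04), Zeb2 at -0.33 (SE 0.08, adjusted p = 0.03), Klf2 at -0.33 (SE 0.07, adjusted p = 0.012), Lgals1 at -0.33 (SE 0.07, adjusted p = 0.016) and the chemokine gene Ccl5 at -0.25 (SE 0.06, adjusted p = 0.012). The contrast was more positive in Klrg1-positive cells for the ribosomal genes Rps19 at 0.52 (SE 0.09, adjusted p = 0.00061), Rps20 at 0.42 (SE 0.07, adjusted p = 0.00078) and Rplp1 at 0.26 (SE 0.07, adjusted p = 0.04). It was so too for the MHC class II genes H2-Eb1 at 2.51 (SE 0.60, adjusted p = 0.026) and H2-Aa at 2.61 (SE 0.62, adjusted p = 0.026), and for Gng11 at 1.88 (SE 0.45, adjusted p = 0.026). In all NK cells the summed conventional dendritic cell markers ranged from 719 to 923 CPM over the negative sums. Within Klrg1-positive cells they ranged from 93.0 to 281 CPM over the negative and from 84.8 to 102 CPM over the positive sums. The fold of Gng11, a gene abundant in platelets, changed sign within Klrg1-positive cells with a second draw of UMIs.

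Leaving out 1 tag at a time kept between 12 and 18 of the 23 calls. Ly6c2, Entpd1, Itgam, Cma1, Gzma, Gzmb, Prf1, Nkg7 and Rps20 passed without any 1 of the tags. The call of Cx3cr1 was lost without tag 2, those of Klf2 and Klra9 without tag 1, those of H2-Aa and Rps19 without tag 3, and those of Zeb2, Ccl5, Tyrobp, Lgals1, Gng11 and H2-Eb1 without tag 1 or tag 2. Cdc20b, Fcer1g and Rplp1 passed only with all 3 tags. The Klrg1-positive cells are fewer and differ from the rest in maturation score and depth. Their Kcnj8-negative cells also held less of the dendritic cell markers. The part of each of these in the differences was not tested.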

How the results depend on the processing

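Over all NK cells the counts of genes higher and lower (664 and 1145) came to 276 and 491 with DESeq2, 294 and 626 with no replicate block, 467 and 1329 with no filter on low counts, 285 and 507 with thinned counts summed and 333 and 663 with the undrawn UMIs summed. Other cells gave 359 and 604 under a stricter NK gate, 105 and 418 with at least 2 Kcnj8 UMIs, 54 and 149 within Itgam-positive, Cd27-negative cells, 62 and 213 with negatives matched by score and 444 and 701 without the deepest decile. The choices added after seeing the data gave 167 and 289 with negatives matched by depth and 397 and 627 without cells with markers of other types. Without 1 tag the counts were 368 to 524 and 735 to 965. Within Klrg1-positive cells the counts (26 and 104) came to 14 and 44 with DESeq2, 6 and 21 with no replicate block, 14 and 37 with thinned counts, 9 and 30 with undrawn UMIs, 43 and 150 with barcodes of several or no tags, 44 and 160 with a second draw, 35 and 68 with classes from unthinned counts, 22 and 157 with no filter, 7 and 11 with negatives matched by depth and 1 and 1 with negatives matched by score. Without 1 tag they were 3 to 31 and 9 to 119. Within Klrg1-negative cells (522 and 933) they were 173 and 359 with DESeq2, and 320 to 353 and 654 to 676 without 1 tag. The difference between the strata (49 and 35) had 74 and 50 with DESeq2, and 14 to 40 and 15 to 23 without 1 tag. The share of Kcnj8-positive cells (11.1%) was 16.04% from unthinned counts, where more UMIs are read per cell, and 12.7% under the stricter gate. Except where fewer UMIs, samples or genes enter, the cause was not tested.

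Of 92 named genes called over all NK cells, 80 to 85 were still called without 1 tag, 72 with DESeq2 and 74 with no replicate block. Of 33 called within Klrg1-positive cells, 7 to 25 were still called without 1 tag, 15 with DESeq2 and 12 with no replicate block. Some log2 folds changed sign. Without cells with markers of other types this held for Lyz2 (0.04), H2-Aa (0.18) and Marcks (0.27), under the stricter gate for H2-Aa (0.11), Klra4 (-0.13) and Klra8 (-0.0018), and without cells holding Mki67 or Top2a for Birc5 (0.042) and Hmgb2 (0.079). Within Itgam-positive, Cd27-negative cells it held for Klra8 (-0.036), Il7r (0.25), Atp2b1 (-0.16) and Ldha (0.0075), and with at least 2 Kcnj8 UMIs for Klra8 (-0.034) and Atp2b1 (-0.061). With negatives matched by depth it held for Klra4 (-0.19), Klra8 (-0.093) and Atp5e (0.0028), and with negatives matched by score for Klra4 (-0.15) and Klra8 (-0.17). Within Klrg1-positive cells it held for Gng11 with a second draw (-0.054) and Il7r with classes from unthinned counts (-0.76). Lyz2 and H2-Aa were markers used to leave out cells, and Birc5 and Hmgb2 share a list with Mki67 and Top2a. The depth of 2500 UMIs limits the classes, since 395 negative cells held a Kcnj8 UMI that was not drawn.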
